A study of Rattus norvegicus with 9 samples.

Results

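The 56 genes described here were grouped as lysosome and autophagy genes by symbol alone, and were measured by RNA sequencing of rat liver. They were chosen by symbol: ATG genes that carry a number, subunits of the vacuolar proton pump (Atp6v0 and Atp6v1), numbered Lamp genes, cathepsins, and Becn1, Ulk1, Sqstm1, Map1lc3a, Map1lc3b, Gabarap, Tfeb, Lipa and Npc1. Of 15565 symbols shared by the 2 deposited tables, 61 fitted these names, and 56 of them had at least 10 reads in 3 or more of the 9 libraries. All 56 were among the 12041 genes that could be tested. Atg9b, Atp6v0a4, Atp6v1b1, Atp6v1g2 and Lamp3 were left out, with at most 8 reads in any library. Just inside the minimum were Ctsw with 2 to 61 reads per library, Ctsk with 9 to 49, Atp6v1c2 with 11 to 36 and Atp6v0d2 with 14 to 34.

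The livers came from male SD rats in 3 groups of 3 libraries. The first group was fed a normal diet, and its source names read rat wt, while those of the other groups give no genotype. The second, the model group, was fed a high-fat diet for 8 weeks, and its livers are labelled as non-alcoholic fatty liver. Rats of the last group were given SCL, which the labels spell out as Smilax china L. (a plant), and their livers carry the same fatty liver label. The labels give neither the diet of the SCL-treated rats nor the dose, route or duration of SCL, nor the age of any rat, and the design text writes SCS where the sample labels write SCL. The question was how the high-fat diet and SCL alter the liver transcriptome. Nothing in the labels says that each library came from its own animal, so the tests measure the spread between these libraries, which may be in part technical.

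The lysosome is the acidic compartment in which a cell degrades proteins, lipids and sugars. Autophagy delivers cytoplasm to it: the ULK1 kinase complex and the Beclin 1 lipid kinase complex start a membrane, 2 ubiquitin-like conjugation systems attach ATG8 proteins such as LC3 to that membrane, and receptors such as p62 (Sqstm1) bring in the cargo. The vacuolar ATPase, made of a membrane sector (V0) and a cytosolic sector (V1), acidifies the lumen, where cathepsins cut proteins and lysosomal acid lipase (Lipa) splits the cholesteryl esters and triglycerides of lipoproteins and lipid droplets. Npc1 then exports the freed cholesterol. In hepatocytes this route, called lipophagy when it degrades lipid droplets, runs beside the cytosolic lipases, and Kupffer cells, the resident macrophages of the liver, are rich in lysosomes.

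Many lysosomal genes carry in their promoters an E-box, CACGTG, which in a longer form is known as the CLEAR element and is bound by TFEB, the master regulator of lysosomal genes. All 56 members matched a RefSeq gene, and RefSeq promoter windows (build GRCr8, from 250 bases before to 50 after the start) were at hand for 46. CACGTG, which reads the same on both strands, was found in 8 of the 46 windows, 17.4%, against 9.04% of the 10100 windows of genes tested and 6.42% of all 33469 windows. The members have 1 window per gene, while the 10100 windows belong to 9088 genes, so some of these count more than once. The members are among the genes tested. The 8-base form TCACGTGA, which contains CACGTG, was found in 5 of 46, 10.9%, against 1.65% of windows of genes tested and 0.777% of all windows. The full 10-base CLEAR element, which adds G before and C after the 8-base form, was found in 0 of 46 windows, against 0.525% of windows of genes tested. A match is a run of letters and not a measured binding site. The hits were in Lamp1, Ctsd, Atg3, Atp6v0d1, Ctsf, Atg5, Atg14 and Atp6v0e1. Lamp1, which encodes a major glycoprotein of the lysosomal membrane, had 5 copies, and Ctsd, the aspartic protease cathepsin D, and Atg3, the enzyme that passes ATG8 proteins to lipid, had 2 each. The stretches below, all on the minus strand and written 5′ to 3′ along the gene, are shown because they hold the repeated copies, with the single copy of Atp6v0d1, a V0 subunit, beside them. They lie at chr16:83075089-83075253 (190 to 26 bases before the start), chr1:206968822-206968984 (163 to 1 before), chr11:69159281-69159330 (50 to 1 before) and chr19:50357283-50357312 (64 to 35 before), and capitals mark CACGTG. Of the 46 windows, 22 are set on a start at the end of the gene's RefSeq span and 24 on another start. Lamp1 is among the 24, with a start 7780 bases inside its span, while those of Ctsd, Atg3 and Atp6v0d1 are at the end.
Lamp1: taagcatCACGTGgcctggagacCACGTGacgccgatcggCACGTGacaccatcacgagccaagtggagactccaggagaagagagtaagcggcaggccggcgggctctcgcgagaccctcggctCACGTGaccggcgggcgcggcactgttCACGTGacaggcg
Ctsd: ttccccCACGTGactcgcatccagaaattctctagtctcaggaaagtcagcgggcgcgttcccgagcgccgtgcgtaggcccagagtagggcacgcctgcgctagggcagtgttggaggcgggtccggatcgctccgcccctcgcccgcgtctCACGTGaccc
Atg3: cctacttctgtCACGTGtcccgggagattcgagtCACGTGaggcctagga
Atp6v0d1: ccccattgtggtCACGTGagatgcagtgcg

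The libraries held 12413774 to 15521648 reads over the shared genes. The share of reads from the 13 mitochondrially encoded transcripts differed widely, from 3.85% to 11.2% in normal diet livers, from 4.90% to 44.1% in high-fat diet livers and from 7.04% to 49.0% in SCL-treated livers. High-fat diet replicate 3 and SCL-treated replicate 2 were the 2 libraries above 40%. The 56 members took 0.319% to 0.616% of all reads, and 0.559% to 0.641% of reads that were not mitochondrial. Levels below are CPM, reads of a gene relative to a library size scaled by TMM, unless a sentence names FPKM, the authors' length-corrected values.

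Per length, a lysosomal protease, an ATG8 protein and a lysosomal membrane glycoprotein stood highest. Mean FPKM over the 9 libraries was 461.9 for Ctsl, the cysteine protease cathepsin L, followed by Gabarap at 224, Lamp2 at 209, Ctsb at 188, and Atp6v0c and Sqstm1 at 176 each. Ctsc, Ctsh and Ctsa came next, at 142, 119 and 100.7. Neighbours in this order overlapped in their ranges over libraries: Gabarap ran from 124 to 280.3, Lamp2 from 154 to 266 and Ctsb from 89.2 to 281. Only Ctsl had a lowest library, at 248 FPKM, above the mean of every other member. The initiation and conjugation genes lay lower, with Becn1 at 12.1, Ulk1 at 9.67 and Atg7 at 1.95, and Tfeb stood at 3.81. At the low end were Ctsk at 1.61, Ctsw at 1.31, and Atp6v0d2 and Atp6v1c2 at 1.17 each.

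**Figure D1:**
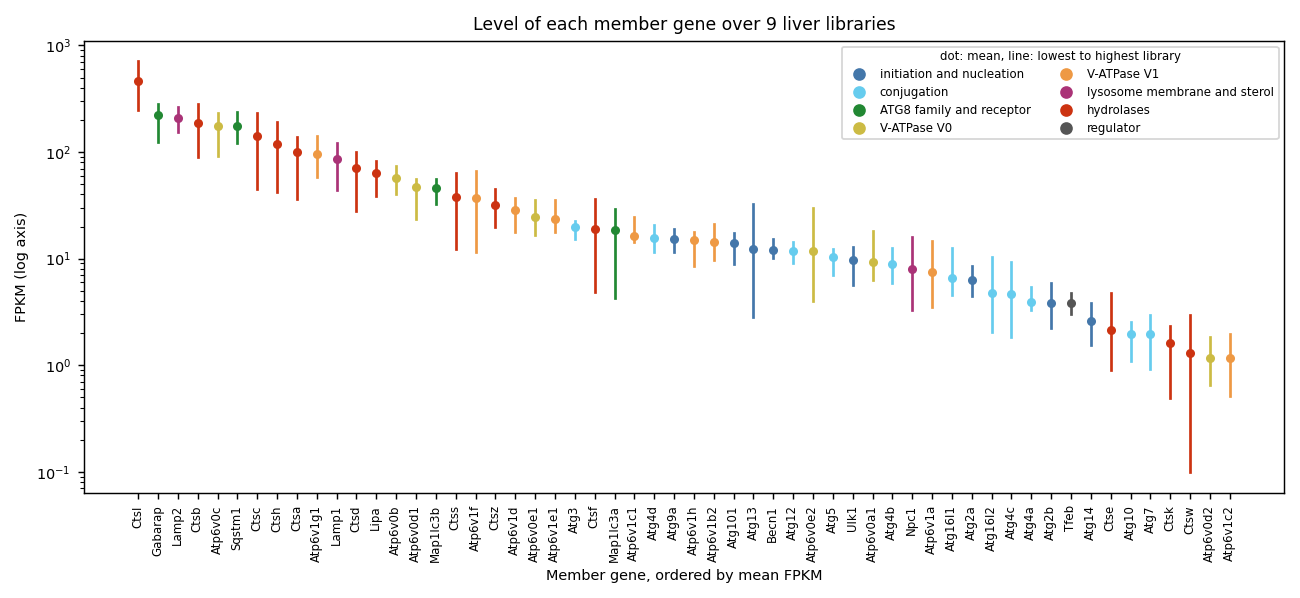
FPKM of the 56 members on a log axis, ordered by mean over 9 libraries, with a line from the lowest to the highest library and colour for the role of the gene. Ctsl stands highest at 461.9 and Atp6v0d2 and Atp6v1c2 lowest at 1.17, and the longest lines belong to low or variable genes such as Ctsw and Atg13.

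In most of the pairs of proton pump genes compared here, the broadly expressed copy gave nearly all of the FPKM of the pair. Only the 2 genes named enter each share, so it is not a share of all copies of a subunit. Of the summed FPKM of Atp6v0d1 and Atp6v0d2, the second gave 1.26% to 4.02% over the 9 libraries, and of Atp6v1c1 and Atp6v1c2 the second gave 3.33% to 10.1%. Atp6v1b1, Atp6v1g2 and Atp6v0a4, the copies known from kidney, brain and acid-secreting cells, gave at most 0.07%, 0.03% and 0.90% beside Atp6v1b2, Atp6v1g1 and Atp6v0a1. A larger share came from the second copy in Atp6v0e1 and Atp6v0e2, with 16.8% to 58.5% from the second, and Atg16l1 and Atg16l2, with 28.0% to 55.3%. Map1lc3a gave 11.1% to 34.7% of the summed FPKM of the 2 LC3 genes, and Lamp2 gave 59.4% to 85.8% of the sum with Lamp1.

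No member passed the test in any comparison. The edgeR quasi-likelihood test with Benjamini-Hochberg adjustment over 12041 genes called 0 of 56 members at an adjusted p under 0.05 in high-fat diet against normal diet, where 0.0083% of all genes tested were called. It called 0 of 56 in SCL-treated against high-fat diet, with 0.0% of genes, and 0 of 56 in SCL-treated against normal diet, with 0.0083%. The lowest adjusted p of a member was 0.91, 1.00 and 0.66 in the 3 comparisons. DESeq2 called 0, 0 and 1 member. Of the genes to which it gave an adjusted p, it called 0.413% of 11619, 0.00643% of 15542 and 0.281% of 12826. Limma-voom with quality weights called 0, 0 and 1 member, with 0.216%, 0.0% and 1.26% of the 12041 genes. The 1 member was Ctsw in each case. The standard error of a member's edgeR log2 fold change had a median of 0.335 and a range of 0.21 to 0.74, and 40 of 56 were under 0.4 in each comparison. Each pair of these comparisons shares the 3 libraries of 1 group.

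At an unadjusted p under 0.05 by edgeR, the high-fat diet comparison had 2 members higher, Ctsw and Atg16l1, and 2 lower, Ctsf and Ctsl, beside 2.77% and 1.55% of all genes. DESeq2 had 3 higher and 3 lower there, beside 3.84% and 1.95% of genes, and limma-voom 6 and 11, beside 15.3% and 14.7%. SCL-treated against high-fat diet had 0 members in either direction by edgeR, beside 0.615% and 1.34% of genes, with 1 and 0 by DESeq2, beside 0.857% and 1.91%, and 3 and 1 by limma-voom, beside 3.19% and 4.5%. In SCL-treated against normal diet, Ctsw and Ctse were higher and Atg2b and Npc1 lower by edgeR, beside 3.32% and 3.55% of genes, with 3 and 3 by DESeq2, beside 4.48% and 5.08%, and 6 and 6 by limma-voom, beside 13.0% and 15.1%.

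The median log2 fold change over the 56 members was -0.079 in high-fat diet against normal diet, with 23 above 0 and 33 below, and 0.034 over all genes tested. In SCL-treated against high-fat diet it was 0.068, with 35 above and 21 below, and -0.031 over all genes, but with library totals alone it was -0.073, with 22 above and 34 below, and -0.19 over all genes. In SCL-treated against normal diet it was -0.040, with 26 above and 30 below, and 0.026 over all genes, but without SCL-treated replicate 2 the members' median was 0.17. In the first comparison the 3 libraries of the groups did not overlap for 3 members on the higher side, Atg10, Atg16l1 and Ctsw, and 5 on the lower side, Ctsc, Ctsd, Ctsf, Ctsl and Lipa, beside 5.33% and 5.27% of all genes. All 5 on the lower side are hydrolases. For SCL-treated against high-fat diet it was Lamp2 on the higher and Atg2b on the lower side, beside 2.36% and 2.43% of genes. For SCL-treated against normal diet it was Atg3 and Ctsw higher, and Atg2b and Npc1 lower, beside 7.47% and 7.81%.

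**Figure D2:**
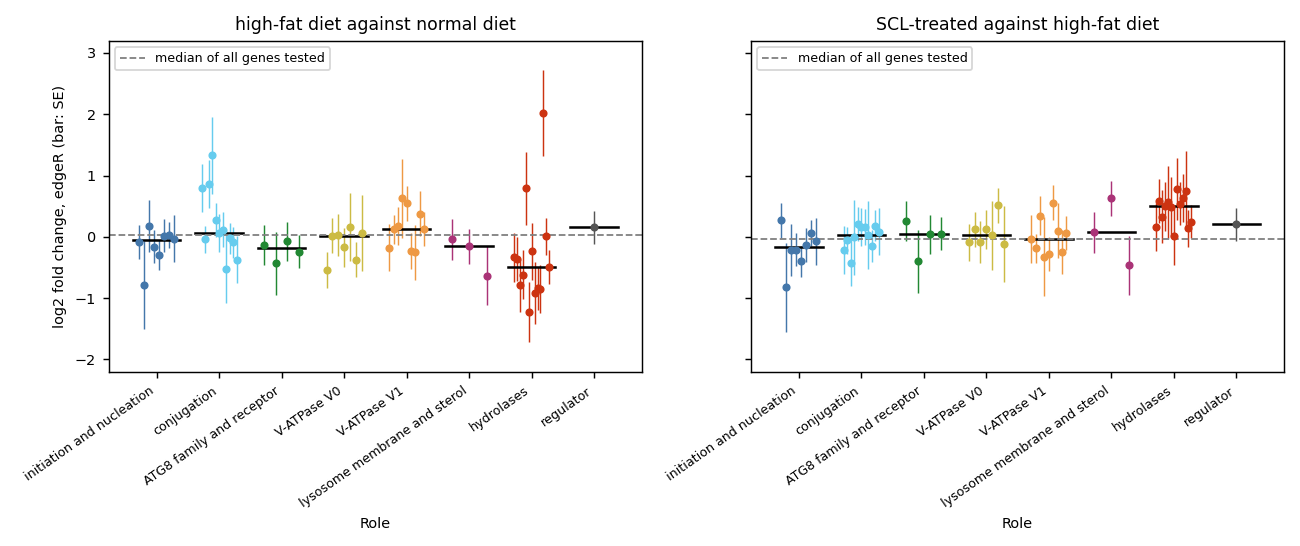
edgeR log2 fold change with its standard error for each member, grouped by role, in high-fat diet against normal diet (left) and SCL-treated against high-fat diet (right), 3 libraries a group, with a black line at each role's median and a dashed line at the median of all genes tested. Hydrolases have a median of -0.49 on the left and 0.50 on the right, where the other roles with more than 1 member lie between -0.19 and 0.13; the 2 panels share the high-fat diet libraries.

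In the high-fat diet comparison and in SCL-treated against high-fat diet, the hydrolases were the role whose median lay farthest from 0. Of 13, 10 were below 0 in high-fat diet against normal diet, with a median log2 fold change of -0.49, while 52.8% of all genes tested were above 0. In SCL-treated against high-fat diet, 13 of 13 were above 0, with a median of 0.50, while 46.7% of all genes were above 0. In SCL-treated against normal diet, 4 of 13 were above 0, with a median of -0.17, but without SCL-treated replicate 2 it was 8 of 13, with a median of 0.13, and limma-voom and the fit with the mitochondrial share also gave medians above 0, 0.031 and 0.13. None of the 13 passed the edgeR test, and the first pair of comparisons share the high-fat diet libraries, so a low value there moves both. With library totals alone as the scaling, which shifted the median of all genes to -0.19 in SCL-treated against high-fat diet, 11 of 13 were above 0, and the hydrolase median stood 0.53 above that of all genes, as it did with TMM.

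Ctsl, the most abundant member, stood at 842, 1023 and 981 CPM in the 3 normal diet libraries, at 426, 682 and 482 in the high-fat diet libraries and at 912, 492 and 910.1 in the SCL-treated libraries. The high-fat diet libraries all lay below the normal diet ones, and SCL-treated replicate 2 lay among the high-fat diet libraries while the other 2 lay near normal. Group means were 949 ± 95.0 (SD, n = 3), 530.1 ± 134 and 771 ± 242. The edgeR log2 fold change was -0.84 (SE 0.35) for high-fat diet against normal diet and 0.54 (SE 0.35) for SCL-treated against high-fat diet, with adjusted p of 0.91 and 1.00.

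Ctsb, cathepsin B, which cuts both within and at the end of proteins, stood at 389, 386 and 327 CPM in normal diet livers, 361, 305 and 193 in high-fat diet livers and 409.7, 267 and 612 in SCL-treated livers. The groups overlapped, with the lowest library in high-fat diet replicate 3 and the highest in SCL-treated replicate 3. Its log2 fold change was -0.36 (SE 0.36) with the high-fat diet and 0.59 (SE 0.36) for SCL-treated against high-fat diet.

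Ctsd, cathepsin D, stood at 165, 169.8 and 156 CPM in normal diet livers, 131, 118 and 71.2 in high-fat diet livers and 197, 67.4 and 188 in SCL-treated livers. Its normal diet libraries all lay above the high-fat diet ones, and SCL-treated replicate 2 was the lowest of 9. The log2 fold change was -0.62 (SE 0.40) for the diet and 0.50 (SE 0.40) for SCL-treated against high-fat diet.

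Ctsc, cathepsin C, which activates the serine proteases of immune granules, stood at 395, 314 and 295 CPM in normal diet livers, 282, 205 and 93.6 in high-fat diet livers and 279, 138 and 313 in SCL-treated livers. The 3 high-fat diet libraries were below the 3 normal ones, and the 2 libraries above 40% mitochondrial reads were the lowest of 9. For the diet, the log2 fold change was -0.79 (SE 0.43).

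Ctsf, cathepsin F, had the most negative fold change of the members for the high-fat diet, at -1.23 (SE 0.49) on the log2 scale, with an edgeR adjusted p of 0.91. Its libraries stood at 61.4, 55.0 and 34.0 CPM in normal diet livers, 34.0, 20.0 and 10.1 in high-fat diet livers and 37.9, 13.4 and 38.4 in SCL-treated livers. Normal diet replicate 3 and high-fat diet replicate 1 were almost level, so the groups only just failed to overlap. High-fat diet replicate 3 and SCL-treated replicate 2 were again the lowest.

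Ctss, cathepsin S, the protease of antigen-presenting cells, stood at 45.3, 54.9 and 36.7 CPM in normal diet livers, 23.7, 38.9 and 13.6 in high-fat diet livers and 43.7, 25.5 and 48.7 in SCL-treated livers. Normal and high-fat diet libraries overlapped, since high-fat diet replicate 2 lay above normal diet replicate 3. The log2 fold change was -0.84 (SE 0.39) for the diet and 0.63 (SE 0.39) for SCL-treated against high-fat diet.

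Lipa, the acid lipase, stood at 254, 230.4 and 257 CPM in normal diet livers, 168, 202 and 159 in high-fat diet livers and 212, 158 and 259 in SCL-treated livers. All 3 high-fat diet libraries were below all 3 normal ones, and the SCL-treated libraries spanned both groups. Group means were 247 ± 14.6, 176 ± 22.2 and 209.5 ± 50.8 (SD, n = 3), and the log2 fold change for the diet was -0.49 (SE 0.27).

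The other hydrolases include Ctsa, a carboxypeptidase that also protects a neuraminidase and a galactosidase, at 246, 259 and 241 CPM in normal diet livers, 255, 177 and 159 in high-fat diet livers and 286, 98.0 and 278 in SCL-treated livers. The aminopeptidase Ctsh stood at 176, 184 and 338 CPM in normal diet livers, 136, 256 and 202 in high-fat diet livers and 195, 88.3 and 316 in SCL-treated livers, with overlap between all groups. For Ctsz, a carboxypeptidase, the log2 fold change was 0.012 for the diet, and for Ctsk, the collagen-cutting protease of osteoclasts, it was -0.92 (SE 0.50).

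**Figure D3:**
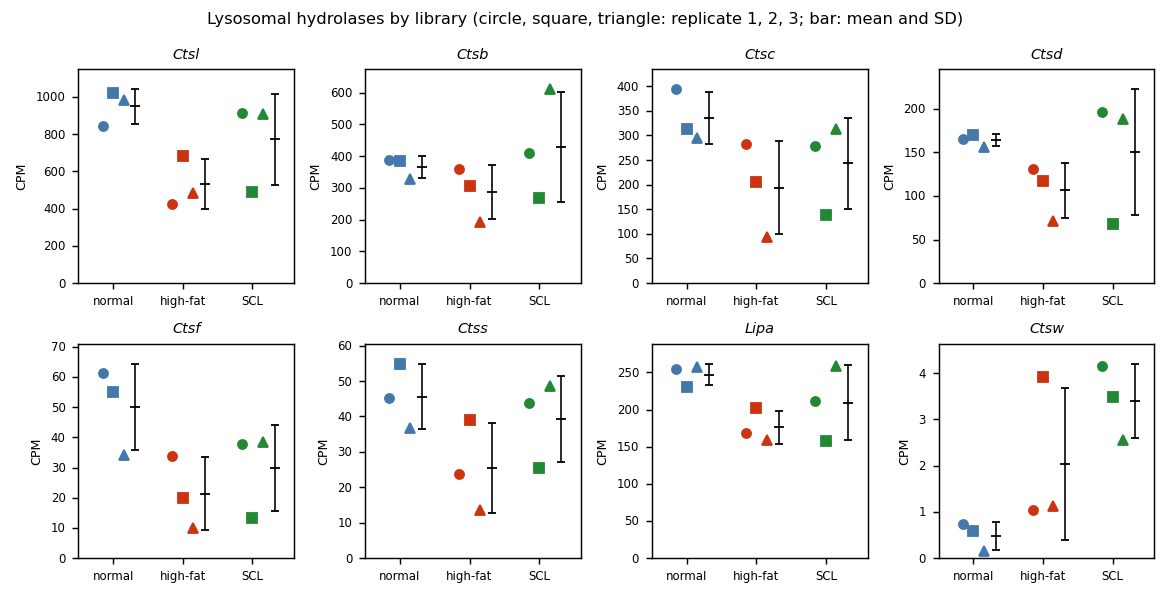
CPM of 8 hydrolases in each library by group, with circle, square and triangle for replicates 1, 2 and 3 and the group mean and SD (n = 3) beside them. For Ctsl, Ctsc, Ctsd, Ctsf and Lipa all 3 high-fat diet libraries lie below the normal diet ones, SCL-treated replicate 2 lies low for each of those 5, and Ctsw runs the other way, from 0.145 to 0.731 on the normal diet to 2.54 to 4.15 with SCL.

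Summed over the 13 hydrolases, the level was 2612, 2728 and 2717 CPM in the normal diet libraries, 1851, 2066 and 1437 in the high-fat diet libraries and 2644, 1399 and 3016 in the SCL-treated libraries. Ctsl alone gave the largest part in every library, with 842, 1023 and 981 CPM of the normal diet sums and 426, 682 and 482 of the high-fat diet sums. All 3 high-fat diet sums were below the normal ones, at mitochondrial shares of 4.90%, 18.8% and 44.1%. The part of the mitochondrial share in these values was not tested. Of the 9 libraries, the 2 above 40% mitochondrial reads had the lowest sums, in CPM, whose library size includes mitochondrial reads. Of reads that were not mitochondrial, the 56 members took 0.629% in high-fat diet replicate 3 and 0.625% in SCL-treated replicate 2. They took 0.594%, 0.641% and 0.627% in the normal diet libraries. In the remaining libraries they took 0.561% and 0.559% (high-fat diet replicates 1 and 2) and 0.637% and 0.573% (SCL-treated replicates 1 and 3). The 2 libraries above 40% were also both the lowest in CPM for 12 of 56 members, beside 13.1% of all genes. They were both the highest for 8, beside 15.2%. The 12 were Ctsa, Ctsb, Ctsc, Ctsd, Ctsf, Lipa, Lamp1, Sqstm1, Atg5, Atg12, Atp6v0d1 and Atp6v1f, and the 8 were Atg9a, Atg14, Atg16l1, Atg16l2, Atp6v1c1, Atp6v1c2, Ctse and Ulk1. Without these 2 libraries 11 of 13 hydrolases were below 0 for the high-fat diet, at a median of -0.40, and 13 of 13 above 0 for SCL-treated against high-fat diet, at 0.38. Adding the mitochondrial share to the fit gave medians of -0.16 and 0.49. For SCL-treated against high-fat diet, leaving out SCL-treated replicate 3, high-fat diet replicate 3 or SCL-treated replicate 1 gave a median of 0.26, 0.27 and 0.27, and leaving out SCL-treated replicate 2 gave 0.62.

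Kupffer cell and macrophage markers were low in some of the same libraries. The summed level of 14 Kupffer cell and macrophage markers, of which 13 could be tested, was 897, 954 and 733 CPM in normal diet livers, 526, 876 and 457 in high-fat diet livers and 791, 460.3 and 869 in SCL-treated livers. The normal and high-fat diet libraries overlapped, because high-fat diet replicate 2 stood within the normal range. Of the 13, 11 were below 0 for the high-fat diet (median log2 fold change -0.52), and 9 were above 0 for SCL-treated against high-fat diet, with a median of 0.17. Clec4f, a lectin specific to Kupffer cells, stood at 225, 238 and 153 CPM in normal diet livers, 102, 154 and 52.2 in high-fat diet livers and 174, 66.9 and 273 in SCL-treated livers, and Timd4, another Kupffer cell marker, was at 0 in 1 SCL-treated library and at most 1.67 CPM. The 8 hepatocyte markers were also all below 0 for the high-fat diet (median -0.52), and their sum was lowest in the 2 libraries above 40% mitochondrial reads. The part of either cell type in the hydrolase values was not tested, and in whole liver fewer cells of a type and less RNA per cell cannot be told apart.

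**Figure D4:**
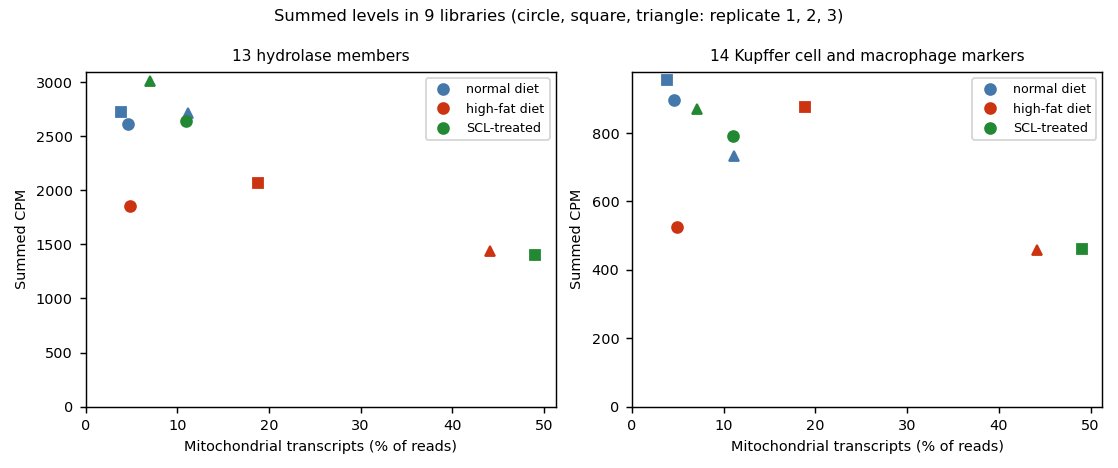
Summed CPM of the 13 hydrolase members (left) and of 14 Kupffer cell and macrophage markers (right) against the percent of reads from mitochondrial transcripts, 1 point per library. The 2 libraries above 40% have the lowest sums on the left, 1437 and 1399 CPM. All 3 high-fat diet libraries stand below the 3 normal diet libraries on the left, while on the right high-fat diet replicate 2 lies within their range.

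Ctsw and Ctse were the hydrolases above 0 for the high-fat diet, beside Ctsz at 0.012. Ctsw, a cathepsin of cytotoxic T and NK cells, stood at 0.731, 0.576 and 0.145 CPM in normal diet livers, 1.05, 3.93 and 1.13 in high-fat diet livers and 4.15, 3.49 and 2.54 in SCL-treated livers. All high-fat diet and all SCL-treated libraries lay above the normal diet ones, on 2 to 61 reads per library. Its log2 fold change was 2.03 (SE 0.70) for the high-fat diet and 2.77 (SE 0.71) for SCL-treated against normal diet, where the adjusted p was 0.66 by edgeR, 0.041 by DESeq2 and 0.041 by limma-voom. For SCL-treated against high-fat diet, where the groups overlapped, it was 0.75 (SE 0.65).

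The summed level of T and NK cell markers was also higher in every SCL-treated library than in any normal diet library. Over 7 markers it stood at 7.74, 10.1 and 15.98 CPM in normal diet livers, 10.3, 28.3 and 20.2 in high-fat diet livers and 24.9, 26.0 and 19.5 in SCL-treated livers. The 6 that could be tested were all above 0 for the high-fat diet (median log2 fold change 0.85), and for SCL-treated against normal diet, with a median of 1.28. Of these, 0 passed the edgeR test. At an unadjusted p under 0.05 by edgeR, 0 and 2 of them were higher, beside 2.77% and 3.32% of all genes. The defining T cell genes Cd3d and Cd3e were low throughout, at most 1.56 and 1.77 CPM. B and plasma cell markers stood at 15.6, 5.01 and 9.83 CPM in normal diet livers, 8.99, 25.9 and 17.5 in high-fat diet livers and 39.8, 16.1 and 16.1 in SCL-treated livers. Erythroid markers stood at 138, 53.4 and 115 CPM in normal diet livers, 109, 128 and 252 in high-fat diet livers and 306, 499.9 and 164 in SCL-treated livers. Both sums were also higher in every SCL-treated library than in any normal diet library. The part of these cell types in the Ctsw values was not tested.

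Ctse, an aspartic protease of the endosome, stood at 1.83, 2.25 and 4.34 CPM in normal diet livers, 2.30, 5.81 and 6.52 in high-fat diet livers and 6.19, 12.6 and 2.81 in SCL-treated livers. The SCL-treated group ran from 2.81 to 12.6 and overlapped the normal diet group. Its log2 fold change for SCL-treated against normal diet was 1.36 (SE 0.60), with an edgeR adjusted p of 0.66.

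Becn1 and Atg12 varied least of the members. Becn1, the scaffold of the lipid kinase complex, stood at 43.4, 41.8 and 44.8 CPM in normal diet livers, 46.0, 44.9 and 41.9 in high-fat diet livers and 42.5, 51.1 and 45.2 in SCL-treated livers. The groups overlapped, with a ratio of highest to lowest of 1.22, as for Atg12; the members' median ratio was 2.38 and that of 11686 genes with a read in every library 2.90. The log2 fold change of Becn1 was 0.031 (SE 0.21) for the diet and 0.063 (SE 0.21) for SCL-treated against high-fat diet.

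Ulk1, the initiating kinase, stood at 57.1, 44.5 and 45.6 CPM in normal diet livers, 40.4, 39.6 and 64.5 in high-fat diet livers and 26.6, 75.4 and 35.4 in SCL-treated livers. The SCL-treated libraries spanned the lowest and the highest of the 9, and the 2 libraries above 40% mitochondrial reads were the highest. Atg13, its partner in the kinase complex, was among the most variable members, at 42.3, 24.9 and 10.05 CPM in normal diet livers, 33.5, 5.18 and 5.91 in high-fat diet livers and 10.3, 4.85 and 10.1 in SCL-treated livers. Normal diet replicates 1 and 2 and high-fat diet replicate 1 stood above the other 6 libraries. For SCL-treated against normal diet its log2 fold change was -1.61 (SE 0.74), with an edgeR adjusted p of 0.66.

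Atg2b, which transfers lipid into the growing membrane, stood at 47.9, 49.8 and 35.9 CPM in normal diet livers, 44.9, 30.3 and 33.8 in high-fat diet livers and 29.9, 25.8 and 26.9 in SCL-treated livers. All 3 SCL-treated libraries lay below all 6 of the others, and its log2 fold change for SCL-treated against normal diet was -0.69 (SE 0.25), with an edgeR adjusted p of 0.66. Atg9a, which moves lipid between the leaflets of the membrane, stood at 70.0, 60.1 and 61.4 CPM in normal diet livers, 55.6, 55.3 and 83.3 in high-fat diet livers and 46.2, 74.2 and 57.2 in SCL-treated livers, with overlap. Atg101, a stabiliser of Atg13, stood at 15.4, 19.7 and 23.3 CPM in normal diet livers, 17.1, 17.7 and 20.2 in high-fat diet livers and 24.0, 15.4 and 26.9 in SCL-treated livers. Over the 8 members of this role, which also hold Atg14 and Atg2a, the median log2 fold change was -0.056 for the diet and -0.17 for SCL-treated against high-fat diet.

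The conjugation genes (11 members) had medians of 0.066, 0.032 and 0.23 in the 3 comparisons. Atg16l1, which places the conjugation complex on the membrane, stood at 17.3, 15.2 and 15.8 CPM in normal diet livers, 19.0, 23.2 and 46.0 in high-fat diet livers and 15.8, 33.1 and 16.9 in SCL-treated livers. All high-fat diet libraries lay above the normal ones, with replicate 3, at 44.1% mitochondrial, far above the others. The log2 fold change was 0.86 (SE 0.39) for the diet, at an edgeR adjusted p of 0.91. Its paralog Atg16l2 stood at 4.26, 3.74 and 7.81 CPM in normal diet livers, 5.70, 12.8 and 21.5 in high-fat diet livers and 8.17, 26.0 and 5.62 in SCL-treated livers, with a log2 fold change of 1.33 (SE 0.63) for the diet. In both genes the 2 libraries above 40% mitochondrial reads were the 2 highest. For Atg16l1 and the diet, the log2 fold change was 0.27 with the mitochondrial share in the fit and 0.38 without these 2 libraries.

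Atg3 stood at 32.3, 38.5 and 46.2 CPM in normal diet livers, 32.2, 54.6 and 54.2 in high-fat diet livers and 49.4, 62.9 and 51.5 in SCL-treated livers. The SCL-treated libraries all lay above the normal diet ones and overlapped the high-fat diet ones. Atg4d, a protease that trims ATG8 proteins, stood at 26.0, 35.1 and 34.3 CPM in normal diet livers, 25.5, 28.0 and 40.4 in high-fat diet livers and 27.4, 26.9 and 30.3 in SCL-treated livers, with the groups overlapping. The remaining conjugation members, Atg4a, Atg4b, Atg4c, Atg5, Atg7, Atg10 and Atg12, had no edgeR adjusted p below 0.66 in any comparison, and Atg10, the enzyme that joins ATG12 to ATG5, had a log2 fold change of 0.80 (SE 0.39) for the diet.

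Of the ATG8 family, Map1lc3b (LC3B) stood at 72.3, 89.3 and 101 CPM in normal diet livers, 49.0, 90.5 and 111 in high-fat diet livers and 88.3, 75.3 and 94.1 in SCL-treated livers. Gabarap, of the second ATG8 subfamily, stood at 167, 165 and 219.5 CPM in normal diet livers, 144, 204 and 154 in high-fat diet livers and 221, 123 and 259 in SCL-treated livers. Both overlapped between all groups, with log2 fold changes for the diet of -0.073 (SE 0.32) and -0.13 (SE 0.33). Map1lc3a (LC3A) was more variable, at 16.02, 24.6 and 27.9 CPM in normal diet livers, 11.3, 20.3 and 19.5 in high-fat diet livers and 24.7, 4.95 and 8.86 in SCL-treated livers, with SCL-treated replicates 2 and 3 the lowest of 9.

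The cargo receptor Sqstm1 stood at 342, 425 and 392 CPM in normal diet livers, 368, 324 and 288 in high-fat diet livers and 366, 297 and 354 in SCL-treated livers. Its ratio of highest to lowest library was 1.47, the groups overlapped, and the log2 fold change was -0.24 (SE 0.26) for the diet and 0.052 (SE 0.26) for SCL-treated against high-fat diet. Transcript levels of these genes do not measure the flow of cargo through autophagy, which was not assayed.

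**Figure D5:**
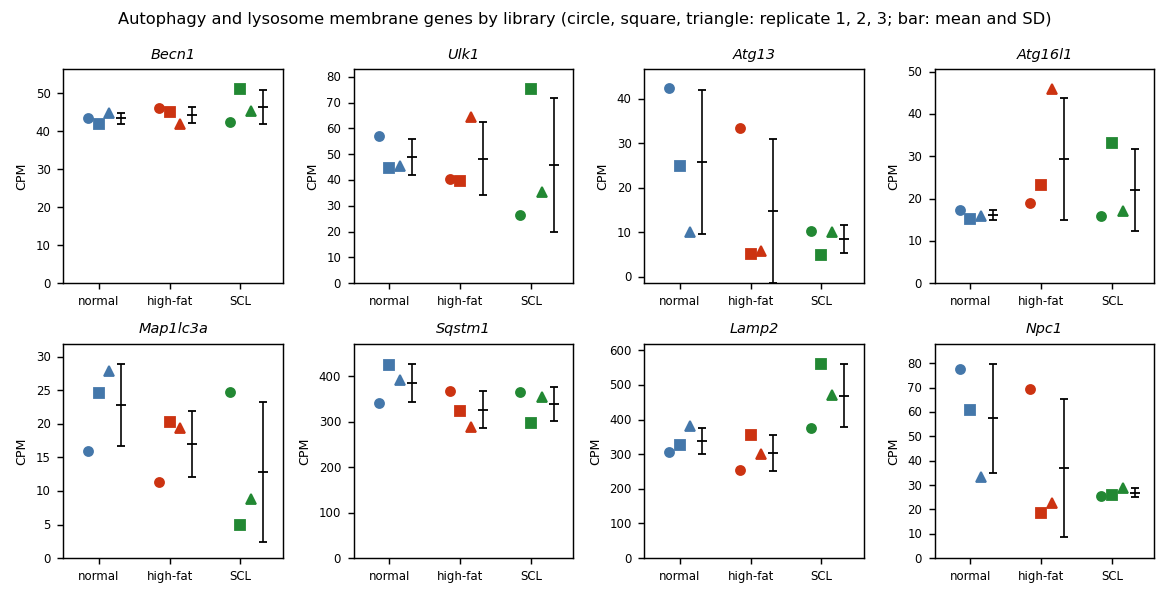
CPM of 8 autophagy and lysosome membrane genes in each library by group, with circle, square and triangle for replicates 1, 2 and 3 and the group mean and SD (n = 3). Becn1 lies between 41.8 and 51.1 in all 9 libraries, while Atg13 and Npc1 are high in normal diet replicates 1 and 2 and high-fat diet replicate 1; for Atg13 the SD bar of the high-fat diet group reaches below 0 because 1 library lies far above the other 2.

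On the lysosomal membrane, Lamp1 stood at 332, 324 and 365 CPM in normal diet livers, 399.9, 335 and 258 in high-fat diet livers and 388, 212 and 444 in SCL-treated livers. Lamp2, which is also needed for fusion with autophagosomes, stood at 305, 328 and 380.2 CPM in normal diet livers, 254, 356 and 300.5 in high-fat diet livers and 376, 559.5 and 472 in SCL-treated livers. Lamp2 was the only member whose SCL-treated libraries all lay above the high-fat diet libraries, and they overlapped the normal ones. Its log2 fold change was 0.63 (SE 0.29) for SCL-treated against high-fat diet, with an edgeR adjusted p of 1.00. Lamp1 had log2 fold changes of -0.04 (SE 0.33) and 0.073 (SE 0.33).

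Npc1 stood at 77.8, 60.9 and 33.3 CPM in normal diet livers, 69.5, 18.7 and 22.6 in high-fat diet livers and 25.5, 26.1 and 29.0 in SCL-treated livers. As for Atg13, normal diet replicates 1 and 2 and high-fat diet replicate 1 stood above the rest, and the 3 SCL-treated libraries lay below all normal diet ones. The log2 fold change for SCL-treated against normal diet was -1.09 (SE 0.49), with an edgeR adjusted p of 0.66. High-fat diet replicate 1 was at least 1.5 times above both other libraries of its group for 6 members, Atg13, Atg4c, Atp6v0e2, Atp6v1a, Ctsf and Npc1, and at least 1.5 times below both for 9, beside 20.5% and 20.0% of genes tested. The title of this library carries the mark M2, where those of both other high-fat diet libraries carry M.

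No subunit of the proton pump passed the edgeR test. The 7 V0 members had medians of 0.019, 0.023 and -0.045 in the 3 comparisons and the 9 V1 members 0.13, -0.034 and 0.19. These medians depended on single libraries and on the scaling. Without high-fat diet replicate 2, 1 of 7 V0 members was above 0 for the diet, with a median of -0.33. Without SCL-treated replicate 2, 6 of 7 V0 and 7 of 9 V1 members were above 0 for SCL-treated against normal diet, with medians of 0.22 and 0.23, while with library totals alone it was 0 of 7 and 4 of 9. Atp6v0c, the proteolipid that forms the rotating ring, stood at 170.3, 182 and 255 CPM in normal diet livers, 179, 266 and 174 in high-fat diet livers and 260.5, 126 and 196 in SCL-treated livers. The ring subunit Atp6v0b stood at 45.1, 55.1 and 67.2 CPM in normal diet livers, 40.5, 66.7 and 62.5 in high-fat diet livers and 72.4, 48.4 and 63.7 in SCL-treated livers. Both overlapped between groups, with Atp6v0c lowest in SCL-treated replicate 2.

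In V1, the stalk subunit Atp6v1g1 stood at 67.7, 97.0 and 110.2 CPM in normal diet livers, 77.6, 139.6 and 140.1 in high-fat diet livers and 148, 75.4 and 78.2 in SCL-treated livers. The rotor subunit Atp6v1f stood at 22.5, 28.2 and 25.9 CPM in normal diet livers, 22.1, 24.7 and 17.5 in high-fat diet livers and 41.1, 8.93 and 18.8 in SCL-treated livers. SCL-treated replicate 1 was the highest of 9 for both. Among the remaining V1 subunits the largest distance from 0 for the diet was 0.63, in Atp6v1c2, a gene of 11 to 36 reads per library. Atp6v1d, part of the central shaft, had a log2 fold change of 0.55 (SE 0.28) for the diet, and the V0 anchor Atp6v0a1 one of -0.54 (SE 0.30).

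Tfeb itself stood at 7.31, 7.60 and 8.96 CPM in normal diet livers, 8.78, 8.48 and 9.30 in high-fat diet livers and 9.46, 8.64 and 12.5 in SCL-treated livers. Its groups overlapped, with SCL-treated replicate 3 the highest, and the log2 fold change was 0.15 (SE 0.27), 0.21 (SE 0.27) and 0.36 (SE 0.27) in the 3 comparisons. TFEB is controlled mainly by its phosphorylation and movement to the nucleus, which RNA levels do not show.

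Other genes of the pathway were taken from lists. Of 31 further lysosomal hydrolases and cofactors tested, 26 were below 0 for the high-fat diet (median log2 fold change -0.24), and 21 were above 0 for SCL-treated against high-fat diet, with a median of 0.14. Arsb, which removes sulfate from glycosaminoglycans, stood at 30.9, 24.7 and 28.1 CPM in normal diet livers, 15.1, 14.1 and 11.9 in high-fat diet livers and 24.0, 9.02 and 19.7 in SCL-treated livers. Its high-fat diet libraries all lay below the normal ones, with a log2 fold change of -1.03 (SE 0.34). Of the 31, 8 did not overlap on the lower side and 0 on the higher, beside 5.27% and 5.33% of all genes. Of 19 membrane and sorting genes 14 were below 0 for the high-fat diet, of 28 further autophagy genes 21 were, and of 20 regulators 12 were. The edgeR test called 0 genes of these lists in any comparison, as did DESeq2 and limma-voom. For the high-fat diet, edgeR had 2 further hydrolases, Arsb among them, and 1 regulator lower at an unadjusted p under 0.05. The share of all genes lower there was 1.55%. In SCL-treated against high-fat diet it had 1 autophagy gene higher and 1 regulator lower, beside 0.615% and 1.34% of all genes. In SCL-treated against normal diet it had 1 autophagy gene higher and 4 regulators lower, beside 3.32% and 3.55%.

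In the authors' deposited table, 0 of the 56 members had an adjusted p under 0.05 in normal diet over high-fat diet, with a lowest value of 0.32, beside 0.44% of the genes tested here. In SCL-treated over high-fat diet the authors' deposited table also had 0, with a lowest value of 1.00, beside 0.0% of genes. At an unadjusted p under 0.05 the authors' deposited table had 6 members in the first, Atg16l1, Atg16l2, Ctsf, Ctsl, Ctsw and Lipa, beside 6.89% of genes, and 0 in the second, beside 1.65%.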

How the data were processed

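RNA of rat liver was extracted with Trizol and sequenced from NEBNext Ultra libraries, per the labels' protocols. There are 2 tables, each deposited by the authors with, per the file headers, raw counts, a normalized signal (from the values, counts over a size factor), FPKM, and for each gene a log2 fold change with its p-value and adjusted p-value. DESeq2 (version not stated) and the mouse build mm9 appear in the submitters' processing notes. No aligner, counter, use of strand or treatment of reads shared by close copies is stated. Columns were mapped to libraries by name.

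The raw counts of the 15565 shared genes were tested with edgeR 4.0.16 (R 4.3.3): a filterByExpr minimum count of 10, leaving 12041 genes, TMM scaling, 1 fit of all 9 libraries by group (6 residual degrees of freedom), the two-sided quasi-likelihood test and Benjamini-Hochberg adjustment over all genes tested. A standard error is the size of the log2 fold change over the root of F. DESeq2 1.42.0, limma 3.58.1 voom, other scalings and filters, the mitochondrial share, a replicate block and leaving out each library were alternatives. The main edgeR fit and DESeq2 were tested on simulated counts, for high-fat diet against normal diet alone, and the other alternatives were not.

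The members and lists were chosen with earlier results of these data known. Full values are given for members with an unadjusted p under 0.05, for the 2 most abundant of each role, and for those listed by name. Ctsa, Ctsc, Ctsd, Ctsh, Ctsk, Ctss, Ctsz, Atg10, Atg13, Atg16l2, Atp6v0a1, Atp6v1c2, Atp6v1d and the pathway and marker genes given by value were chosen after their values were seen. The name and values of 1 pathway gene are not reported here.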

Additional observations from a re-analysis of the deposited data

How the results depend on the processing

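Of the counts and medians over members, 108 under the alternatives stayed within the spread between libraries, 0.146 for a median, or within 1.5 times for a count, and 6 did not. That spread is larger than each main median, so a median that changed sign could still be counted as within it. With limma-voom, for example, the median in SCL-treated against normal diet was 0.097 and was counted so. A count of 0 that stayed at 0 is also among the 108. Of the log2 fold changes of single genes and the hydrolase medians, 1524 were counted as the same. A gene was counted as changed in sign only if it also moved by more than 1 standard error. On that rule 12 changed sign, 2 passed the threshold of adjusted p, and 1 hydrolase median moved beyond its spread. A smaller change of sign was counted as the same. Ctsw in SCL-treated against normal diet was called by DESeq2 and by limma-voom with quality weights, so that the count of members called was 1 in each against 0 by edgeR. The median over members in that comparison, -0.040, was -0.26 with library totals alone, 0.11 with the mitochondrial share as a covariate, 0.16 without the 2 libraries above 40% mitochondrial reads, and -0.090 to 0.17 when each library was left out in turn, the highest without SCL-treated replicate 2. Library totals alone shifted the median of all genes to -0.19 in SCL-treated against high-fat diet and to -0.21 in SCL-treated against normal diet, and turned the members' median in the former from 0.068 to -0.073. With the mitochondrial covariate the log2 fold change for the high-fat diet was -0.037 for Atg3, 0.050 for Ctsb, -0.11 for Ctse and -0.16 for the hydrolase median, and that of Atg16l1 for SCL-treated against normal diet was -0.13. Becn1 in that comparison was -0.15 with library totals. In SCL-treated against high-fat diet, limma-voom gave -0.044 for Ctse and 0.20 for Npc1. Leaving out 1 library at a time gave ranges that crossed 0 there for Atg16l1 (-0.84 to 0.052, above 0 without high-fat diet replicate 3), Atp6v1f (-0.62 to 0.49, below 0 without SCL-treated replicate 1), Ctse (-0.098 to 0.95, below 0 without SCL-treated replicate 2) and Npc1 (-0.79 to 0.39, above 0 without high-fat diet replicate 1). The same held for Atp6v1g1 in SCL-treated against normal diet (-0.26 to 0.30, below 0 without SCL-treated replicate 1). The cause was not tested.

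With the replicate number as a block, edgeR called 0 members in each comparison, and the medians were -0.093, 0.11 and -0.064. Libraries that share a number did not deviate together in every pair (correlations from -0.35 to 0.60), so the numbers were not taken to pair the samples. Libraries of different groups and numbers also deviated together or apart. Their correlations ran from -0.69 (normal diet replicate 3 with high-fat diet replicate 1) to 0.54 (normal diet replicate 3 with high-fat diet replicate 2).

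The hydrolases were above 0 in SCL-treated against high-fat diet in 11 to 13 of 13, and below 0 for the high-fat diet in 9 to 11 of 13, over the alternatives that dropped no library of the groups compared. Ctsw rests on 2 to 61 reads per library.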

Other observations

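Fundc1, a receptor for the removal of mitochondria by autophagy, stood at 7.80, 7.32 and 7.16 CPM in normal diet livers, 7.16, 9.11 and 7.04 in high-fat diet livers and 11.8, 12.3 and 12.7 in SCL-treated livers. All 3 SCL-treated libraries lay above the other 6. Fundc1 was the 1 of 28 further autophagy genes tested that did not overlap on the higher side against high-fat diet, beside 2.36% of all genes. It was also the 1 of 28 against normal diet, beside 7.47%. On the lower side there was 1 of 28 in each comparison, beside 2.43% and 7.81%. Against high-fat diet its log2 fold change in SCL-treated livers was 0.66 (SE 0.26), and against normal diet 0.73 (SE 0.26), and it did not pass the edgeR test with adjustment over all genes. It was singled out after its values were seen.

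Among the regulators of the pathway, Foxo1, Foxo3, Prkaa2 and Ppargc1a stood high in normal diet replicates 1 and 2 and low in replicate 3. Foxo3, a transcription factor of autophagy genes, was at 23.2, 21.5 and 5.42 CPM in normal diet livers, 10.4, 2.36 and 4.26 in high-fat diet livers and 5.58, 0.388 and 2.72 in SCL-treated livers. Prkaa2, a catalytic subunit of the energy sensor AMPK, was at 33.8, 25.2 and 8.10 CPM in normal diet livers, 39.9, 4.40 and 7.21 in high-fat diet livers and 7.82, 4.37 and 4.12 in SCL-treated livers. Foxo1, a transcription factor under insulin control, was at 14.6, 12.4 and 2.31 CPM in normal diet livers, 23.4, 2.04 and 3.56 in high-fat diet livers and 2.31, 1.26 and 3.16 in SCL-treated livers. High-fat diet replicate 1 stood with the 2 high normal diet libraries for Foxo1 and Prkaa2, as it did for Atg13 and Npc1. The pattern is not particular to the genes named. Over all genes tested, deviations of high-fat diet replicate 1 from its group mean correlated with those of normal diet replicates 1 and 2 at 0.60 and 0.36. With those of normal diet replicate 3 the correlation was -0.69. These genes, too, were singled out after their values were seen.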
